A study of Mus musculus with 8 samples.

Results

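Scd2 and Erdr1 were 2 genes whose probe sets stood out between wild-type and Elf4 knockout CD8+ T cells, both without stimulation and after activation. They were examined together with 4 probe sets that carry no gene name in the annotation used here, 1457769_at, 1439200_x_at, 1431213_a_at and 1455869_at. All probe sets annotated to Scd2 or Erdr1 alone were taken, which gave 3 for Scd2 and 2 for Erdr1. The 9 probe sets come from a table of 45101. They were selected on the intensity difference between genotypes within each state, so that difference is described here and not tested. The choice named no numerical threshold.

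CD8+ T cells were purified from mouse spleen, from wild-type animals of strain C57BL/6 or from animals labelled Elf4-/- KO, which lack the transcription factor gene Elf4. Cells were left untreated, called naive below, or were activated for 3.5 days on plates coated with antibody to CD3, with antibody to CD28 and T-stim supplement in the medium. Each of the 4 groups had 2 Affymetrix arrays. The age and sex of the animals, the strain background of the knockout and the design of its deleted allele are not given in the sources used here. The labels do not say whether the arrays of a group came from separate animals, so p-values measure the spread between these arrays, which may be technical.

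Scd2 encodes a stearoyl-CoA desaturase, an enzyme of the endoplasmic reticulum that introduces a double bond into saturated fatty acyl chains. The enzyme draws its electrons from cytochrome b5, and its monounsaturated products go into phospholipids, triglycerides and cholesterol esters. The sterol-responsive SREBP factors and the oxysterol receptors of the LXR family govern the desaturase genes, and proliferating lymphocytes raise lipid synthesis through SREBP. Erdr1, named erythroid differentiation regulator 1, has been described in the mouse as a stress-related factor with an inverse relation to interleukin 18. The gene table of the mouse assembly GRCm38.p6 places Scd2 on chromosome 19, near Scd1, Scd3 and Scd4, and lists Erdr1 near the end of chromosome X as a transcribed pseudogene.

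Values are MAS5 intensities on a linear scale, and the median probe set of an array read 63.9 to 86. Different probe sets bind with different strength, so levels are compared between groups for 1 probe set and never between probe sets. Differences between groups are means of log2(intensity + 16), and a ratio of mean intensities is given only where every array of both groups read at or above its median. All 9 probe sets were at or above the median on at least 2 arrays and entered the fit. Of these, 1447790_at and 1439200_x_at did so through wild-type arrays only, and 1457769_at through knockout arrays only.

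Elf4 itself, by its brighter probe set, read 116 and 199 in wild type and 165 and 192 in the knockout without stimulation, and 83.6 and 134 against 76.2 and 80.6 after activation. The part of the gene that was deleted is not known here, and the genotype labels therefore cannot be checked by Elf4. Knockout below means the arrays labelled so. The CD8 T cell gene Cd8a was bright, at 4288 to 17150, and Cd4 read from 18 up to 43.1. The summed intensity of 9 CD8 T cell markers was 114737 to 123577 in wild type and 96354 to 105084 in the knockout without stimulation, and 36805 to 39086 and 31170 to 33854 after activation. Other marker lists moved with the groups. The summed intensity of 11 granulocyte markers was 530 to 941 in naive wild-type and 4791 to 19771 in naive knockout arrays, against 290 to 620 on the 4 activated arrays. That of 12 B cell markers was 29174 to 32824 and 32222 to 48627 in naive wild-type and knockout arrays, and 4941 to 5158 and 6062 to 7408 in activated ones. For 14 macrophage and monocyte markers the sums were 21051 to 22437 and 19819 to 30883 in naive cells, and 10882 to 12923 and 10692 to 11223 in activated cells. In naive cells 4 of 9 granulocyte markers were called higher in the knockout (limma), namely S100a8, S100a9, Ngp and Lcn2. So were 1 of 12 B cell markers (Igha) and 1 of 5 NK cell markers (Klra8). Of the CD4 and regulatory T cell markers 2 of 5 were, Ikzf2 and Gpr83. Over all probe sets 0.562% passed in either direction. In activated cells 1 of 5 of the last list, Ikzf2, was called higher, where 0.215% of all probe sets passed. Sums of 7 platelet markers were 910 to 932 in wild type and 1337 to 1451 in the knockout before activation, and 3764 to 4675 and 4639 to 4710 after it. For 6 NK cell markers they were 15518 to 15991 and 17139 to 17299, and then 12251 to 12324 and 8694 to 9119. For 7 CD4 and regulatory T cell markers they were 1145 to 1333 and 2361 to 2915, and then 24785 to 25517 and 27500 to 29748. Il2ra and Ctla4 made up most of the activated sums, with means of 12659 and 10539 in wild type and 12261 and 12780 in the knockout. Cd4 and Foxp3 did not pass the filter and were not tested. Sums of 8 erythroid markers were 503 to 936 on all arrays. Single genes made up a large part of some sums. Their means follow for naive wild type, naive knockout, activated wild type and activated knockout in turn. Nkg7, in the NK cell list, read 15025, 15151, 8808 and 7218. Itgb3, in the platelet list, read 342, 948, 327 and 538. In that list Pf4, Ppbp and Gp5 had lower means in the naive knockout than in naive wild type. Itga2b and Gp1bb had slightly higher ones. Ctss, in the macrophage list, read 16130, 13142, 11054 and 10110. In the B cell list Ighm read 24713, 18764, 4102 and 5656, and Igha 382, 11089, 111 and 81.7. In the CD4 and regulatory T cell list Ikzf2 read 327, 1247, 1614 and 3184, and Gpr83 187, 864, 89.6 and 183. The sums are therefore no count of cells. The part of other cell types in the differences below was not tested, and in bulk RNA fewer cells of a type and less RNA per cell cannot be told apart. Naive and activated arrays also differed in Xist, the RNA of X inactivation (60.3 to 172 and 7703 to 10011), and in the Y-linked Eif2s3y (2537 to 5146 and 2.93 to 44.0). Actb, whose 3' to 5' signal ratio reports on RNA integrity, had ratios of 1.96 to 2.5 on naive arrays against 5.9 to 11.1 on activated ones. In naive cells they were 2.13 and 2.50 in wild type and 1.99 and 1.96 in the knockout. In activated cells they were 5.98 and 5.90 in wild type and 7.44 and 11.1 in the knockout. The ratios of the genotypes thus did not overlap in either state. The labels give the naive and the activated arrays file names of different series. They give both naive wild-type arrays 1 and the same file name, but the values of these arrays differ. Activation, sex, RNA integrity and array series therefore cannot be told apart. Within each state, genotype and RNA integrity cannot be told apart either.

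**Figure D1:**
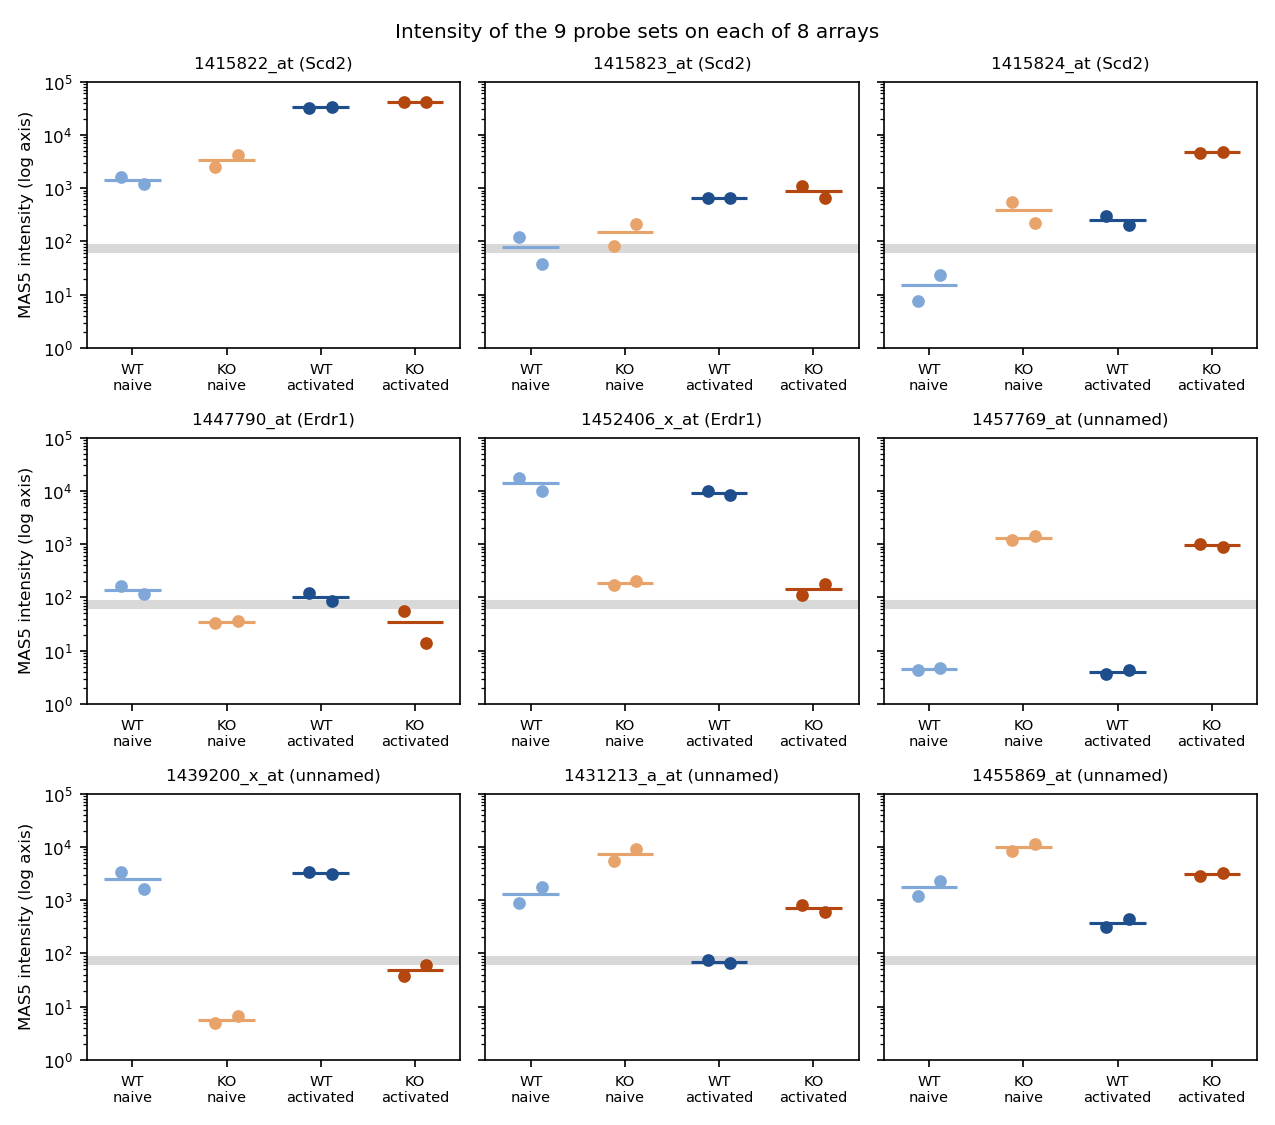
Intensity of each of the 9 probe sets on the 8 arrays, on a log axis. Points are single arrays, horizontal lines are the means of 2 arrays, and the grey band spans the array medians from 63.9 to 86. The Erdr1 probe sets read lower in both knockout groups, and of the 3 Scd2 probe sets 1415824_at shows the widest gap between genotypes.

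The 3 Scd2 probe sets, which the platform annotation assigns to 1 and the same transcript accession, gave unlike genotype differences. Without stimulation the probe set 1415824_at read 7.53 and 23.5 in wild type, against 552 and 222 in the knockout. In activated cells it read 297 and 201 in wild type and 4645 and 4824 in the knockout. The knockout arrays were thus above the wild-type arrays in each state without overlap, and the naive wild-type arrays lay at percentiles 12.8 and 24.9 of their arrays. The difference was 3.59 on the log2 scale in naive and 4.19 in activated cells. In activated cells the mean was 19.0-fold higher in the knockout (4735 ± 127 against 249 ± 67.9, SD, n = 2).

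The brighter Scd2 probe set, 1415822_at, read 1588 and 1216 in wild type without stimulation, against 2504 and 4249 in the knockout. After activation the readings were 32372 and 33062, against 42144 and 40579. The genotypes did not overlap in either state, but the knockout mean was 2.41-fold that of wild type in naive cells (3376 ± 1233 against 1402 ± 263, SD, n = 2). In activated cells it was 1.26-fold (41362 ± 1107 against 32717 ± 488). On the log2 scale these differences were 1.22 and 0.34, smaller than those of 1415824_at by 2.37 and 3.85.

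The last Scd2 probe set, 1415823_at, read 119 and 37.3 in unstimulated wild type, against 82.3 and 213 in the knockout, so the naive genotypes overlapped. After activation it read 645 and 659, against 1085 and 665, where the lower knockout array exceeded the higher wild-type array by little. Its differences were 0.82 and 0.38 on the log2 scale. All 3 probe sets read higher on average in the knockout in both states, but a difference of at least 4-fold in both states was found for 1415824_at alone. The label of a genotype-switched gene therefore holds for 1 of the 3 Scd2 probe sets, and by the other 2 the knockout level was at most 2.41-fold the wild-type level wherever a ratio could be given.

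Both Erdr1 probe sets read lower in the knockout in both states. Without stimulation the probe set 1452406_x_at read 17613 and 9961 in wild type, against 174 and 207 in the knockout. In activated cells it read 10009 and 8385 in wild type and 113 and 179 in the knockout. Every knockout array thus stayed above its array median, at percentiles 60.8 to 67.4, while the wild-type arrays lay at 97.7 to 99.1. The mean was 72.5-fold lower in naive knockout cells (190 ± 23.6 against 13787 ± 5411, SD, n = 2) and 62.9-fold lower in activated knockout cells (146 ± 47.0 against 9197 ± 1148). The log2 differences were −6.01 on naive arrays and −5.85 on activated arrays.

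The other Erdr1 probe set, 1447790_at, was dim. Without stimulation it read 167 and 114 in wild type, against 33.1 and 35.5 in the knockout, and after activation 121 and 85, against 55.9 and 14. The genotypes did not overlap in either state, and all 4 knockout arrays lay below their array medians. Its log2 differences were −1.62 and −1.34, smaller in size than those of 1452406_x_at by 4.39 and 4.52, so that 1 of the 2 Erdr1 probe sets differed at least 4-fold on this scale. With the Actb signal ratio as a covariate the activated difference of 1447790_at was −0.01. The suffix _x_at marks a probe set that may also bind transcripts of other genes, so the reading of 1452406_x_at may include RNA other than that of Erdr1.

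Among the unnamed probe sets, 1439200_x_at had a pattern like that of 1452406_x_at. It read 3351 and 1647 in unstimulated wild type, against 4.87 and 6.60 in the knockout, and 3395 and 3030 against 37.3 and 61.3 after activation. The knockout arrays lay below their array medians in both states, at percentiles 7.6 to 47.8. The log2 differences were −6.77 and −5.65. After each profile was centred on its mean over the 8 arrays, this probe set and 1452406_x_at differed by a root mean square of 0.78 on the log2 scale. The suffix again means that other transcripts may contribute.

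The probe set 1457769_at ran the opposite way. Without stimulation it read 4.33 and 4.71 in wild type, against 1194 and 1390 in the knockout. In activated cells it read 3.60 and 4.35 in wild type and 1026 and 900 in the knockout. The wild-type arrays lay at percentiles 4.7 to 6.5 of their arrays in both states, and the knockout arrays at 84.8 to 88.0. The log2 differences were 5.99 and 5.61. Since the wild-type readings were at the bottom of the scale, these sizes depend on the offset and lay between 3.91 and 8.16 with offsets of 64 and none.

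The probe sets 1431213_a_at and 1455869_at were higher in the knockout and lower after activation in both genotypes. The first read 884 and 1764 in unstimulated wild type, against 5438 and 9194 in the knockout, and 74.5 and 64.8 against 800 and 603 after activation. The second read 1189 and 2312 in unstimulated wild type, against 8210 and 11377, and 307 and 439 against 2832 and 3272 after activation. Neither overlapped between genotypes in either state. The knockout mean of 1455869_at was 5.59-fold that of wild type in naive cells (9794 ± 2239 against 1750.5 ± 794, SD, n = 2) and 8.18-fold in activated cells (3052 ± 311 against 373 ± 93.2). For 1431213_a_at the ratio was 5.53 in naive cells. The log2 differences of the pair were nearly equal, 2.49 and 2.53 in naive and 3.06 and 3.0 in activated cells.

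**Figure D2:**
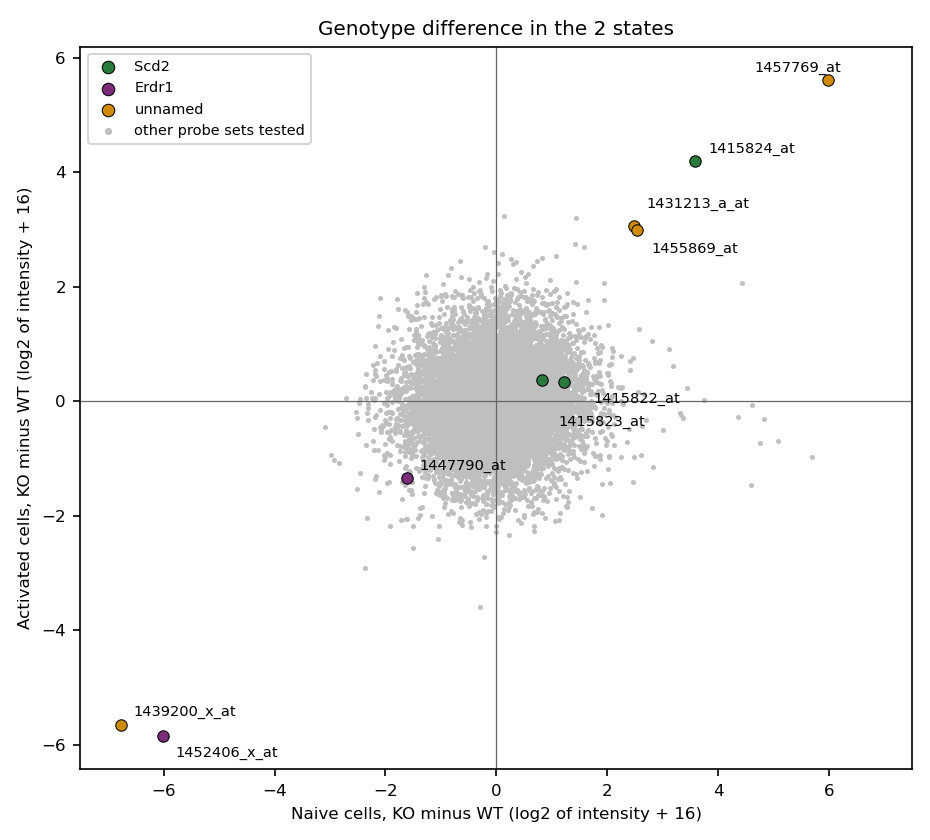
Difference between knockout and wild type in naive cells (horizontal) and activated cells (vertical) for every probe set tested, in log2 of intensity + 16. Coloured points are the 9 probe sets, of which 6 lie at 2 or more from 0 on both axes, while 1415822_at, 1415823_at and 1447790_at lie within the grey cloud or at its edge.

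Set against the whole table, the genotype gaps of 6 of the 9 probe sets were rare in size. The values did not overlap between genotypes for 8 of the 9 in naive cells, where 38.2% of the 27389 probe sets tested did not, and for 9 of 9 in activated cells, where 47% did not. The arrays were apart in the same direction in both states for 8 of the 9, against 10.8% of all. A log2 difference of at least 2 in both states and in one direction was found for 9 probe sets of the table, or 0.0329%, and 6 of these were among those described here. No probe set had such differences in opposite directions. As these values chose the probe sets, nothing further is read from the counts. Of the other 3, named after their values were seen, 1427820_at and 1440145_at carry no gene name, and 1456747_x_at belongs to Cd99l2, an X-linked membrane protein gene. Just outside the limit of 2 lay probe sets of Arntl2, a circadian transcription factor, at 1.94 in naive and 2.07 in activated cells, and of Des, the muscle intermediate filament desmin, at −1.92 and −2.18.

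Cd99l2 showed the same disagreement between probe sets of 1 gene. Its probe set 1456747_x_at read 106 and 101 in unstimulated wild type, against 5.10 and 10.9 in the knockout, and 66.1 and 167 against 31.9 and 2.59 in activated cells. The log2 differences of 1456746_a_at were −1.50 in naive and −2.18 in activated cells, also lower in the knockout, and those of 1423966_at 0.02 and −1.59. The brightest, 1423965_at, read 311 and 382 against 515 and 432 in naive cells and 325 and 391 against 485 and 524 in activated cells, higher in the knockout. No Cd99l2 probe set passed the test between genotypes in either state (limma, adjusted p = 0.0687 to 0.994), though 1456747_x_at had been named for its genotype values.

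Next, the named probe sets whose profiles over the 8 arrays were most like each profile were listed, by the root mean square difference of log2 values after each probe set was centred on its mean. For Erdr1 1452406_x_at, itself spread by 2.99 about its mean, the nearest were 2 probe sets of Cd99l2 and 1 each of Des, Arhgap30 and Adcy1, an adenylyl cyclase gene, at 2.0 to 2.1. The nearest to 1439200_x_at were Cd99l2, Adcy1, Fgf3, Tmem267 and the sodium channel gene Scn11a at 2.16 to 2.32, and those to 1457769_at were the histone deacetylase gene Hdac11, Arntl2, 2 probe sets of Wdfy1, and Pank1, a pantothenate kinase, at 1.97 to 2.05. No probe set among the 22901 named candidates lay closer than 1.97 to any of these 3 profiles. As the 3 were chosen for wide genotype gaps on these same arrays, nothing is read from this distance.

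Scd2 1415822_at, whose genotype differences were smaller, had closer companions. Cenpf, a kinetochore protein gene, Pclaf, which encodes a PCNA-binding factor, the prion protein gene Prnp, Cd200, which encodes a membrane glycoprotein, and Mdfic lay at 0.20 to 0.26, where its own spread was 2.11. For 1415824_at, a choice of probe set made after its values were seen, the nearest were Plxnd1, a semaphorin receptor gene, Bex1, Ndrg1, Inhba, the activin beta A subunit, and the non-muscle myosin gene Myh10, at 1.35 to 1.41. The Scd2 probe sets 1415824_at and 1415822_at differed from each other by 1.74 on this measure.

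The nearest profiles to the remaining pair included genes of B cells and macrophages. Those of 1431213_a_at were Iglv1, an immunoglobulin light chain segment, the B cell adaptor gene Bank1, Apoe, Mpeg1, a pore-forming protein gene of macrophages, and Ms4a1, which encodes CD20, at 0.83 to 1.02. Those of 1455869_at were Ptpn13, a tyrosine phosphatase gene, Wdfy1, Tsc22d1, Cd5l, a secreted protein gene of macrophages, and Iglv1 at 0.69 to 0.87. The genotype differences of the 5 profiles nearest to 1431213_a_at ran from 0.55 to 1.24 in naive and from 0.89 to 1.93 in activated cells, against its own 2.49 and 3.06. Those of the 5 nearest to 1455869_at ran from 0.30 to 1.42 and from 1.82 to 2.75, against 2.53 and 3.0. Differences of the 12 B cell markers spanned −0.40 to 5.07 in naive and −0.70 to 1.31 in activated cells. The part of other cells in these 2 probe sets was not tested.

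The genes next to Scd2 had smaller genotype differences than 1415824_at, but Scd2 was chosen for such differences, so nothing is read from the gap. Of the 10 nearest annotated genes on each side on chromosome 19, 6 of 20 were tested. None passed between genotypes by limma, in naive cells, where 0.562% of all probe sets passed, or in activated cells, where 0.215% did. At an unadjusted p under 0.05 there was 1 in naive and 0 in activated cells. Their log2 differences ran from −0.11 to 0.91 in naive and from −0.39 to 1.28 in activated cells. The largest in both were those of the dim Scd3, another desaturase gene (adjusted p = 0.606 and 0.489, limma). It read 13.5 and 10.0 against 39.8 and 32.2 in naive cells and 35.0 and 24.6 against 77.1 and 115 in activated cells. Only its activated knockout arrays reached their medians, so it entered the fit through the group where it was highest. Nothing is therefore read from its test. Its other probe set, 1423366_at, was not tested and gave −0.25 in naive and 0.73 in activated cells. The other tested neighbours were Scd1, Bloc1s2, Ndufb8, Hif1an and Cwf19l1.

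Scd1, the most closely placed desaturase gene that was bright on the array, gave a genotype difference of 0.37 in naive and 0.48 in activated cells (adjusted p = 0.738 and 0.682, limma). Without stimulation it read 937 and 818 in wild type, against 708 and 1813 in the knockout, which overlapped. In activated cells it read 5107 and 6889 in wild type and 8624 and 7929 in the knockout, without overlap. The dimmer Scd1 probe set read 103 and 107 against 106 and 125, and 805 and 959 against 1109 and 1183.

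Around Erdr1 there were 11 annotated genes, 10 on one side and 1 on the other, of which 5 were tested. None passed between genotypes (limma), where 0.562% of all probe sets passed in naive and 0.215% in activated cells. At an unadjusted p under 0.05 there were 2 in naive and 1 in activated cells. Mid1, a ubiquitin ligase gene that spans the boundary of the pseudoautosomal region in C57BL/6 mice, had the largest difference in both states. It read 623 and 570 in unstimulated wild type, against 216 and 147 in the knockout, and 1899 and 975 against 857 and 566 in activated cells. The groups did not overlap, with log2 differences of −1.65 (SE 0.33, adjusted p = 0.0628) and −0.95 (SE 0.33, adjusted p = 0.315). The 4 others, Msl3, Arhgap6, Amelx and Hccs, ranged from −0.47 to 0.53 in naive and from −0.92 to 0.11 in activated cells. Of 5 genes listed for the pseudoautosomal region and its border Mid1 alone was measured by name.

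**Figure D3:**
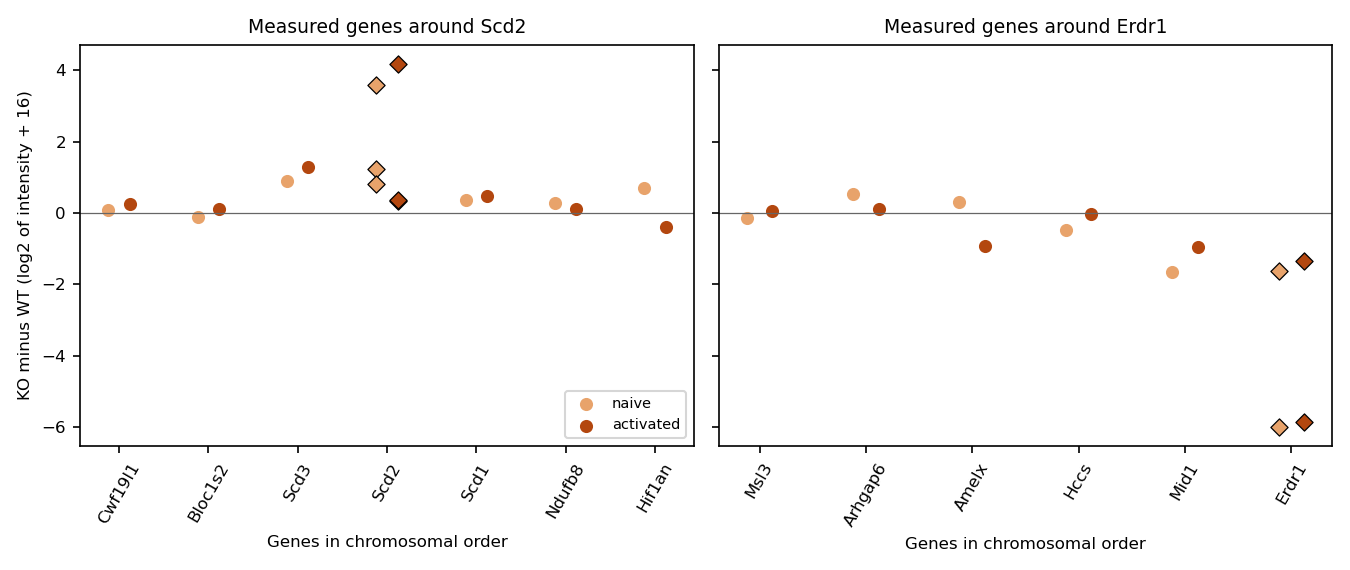
Difference between knockout and wild type (log2 of intensity + 16) for the tested genes around Scd2 on chromosome 19 and around Erdr1 on chromosome X, in chromosomal order and not to distance. Circles are the brightest probe set of a neighbour, outlined diamonds every probe set of Scd2 or Erdr1. Neighbours stay between −1.65 and 1.28, the latter that of the dim Scd3, while the diamonds, of genes chosen for these differences, reach −6.01 and 4.19.

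The lipid pathway around Scd2 was read from 7 lists of enzymes and regulators, 65 of whose 78 genes were tested, each by its brightest probe set. None passed between genotypes in naive or in activated cells (limma), near the 0.562% and 0.215% of all probe sets that did. At an unadjusted p under 0.05 there were 17 and 6. The share of all probe sets under that limit is not given here, so these 2 counts are not read further. The median log2 difference was 0.11 in naive and 0.07 in activated cells, against −0.0038 and −0.02 over all probe sets tested. The range was −1.38 to 1.57 in naive and −0.82 to 1.28 in activated cells. The 3.59 and 4.19 of Scd2 1415824_at lay outside it, but Scd2 was chosen for such differences, so nothing is read from the gap. The lowest naive value was that of Me1, the cytosolic malic enzyme (−1.38, adjusted p = 0.322, limma), and the highest that of Nr1h3, which encodes LXR alpha (1.57, adjusted p = 0.436). Both genes were dim in naive cells. Me1 read 70.9 ± 48.2 in wild type and 15.9 ± 12.4 in the knockout, and Nr1h3 31.4 ± 38.9 and 114 ± 86.1 (SD, n = 2). Me1 and Nr1h3 were named after their values were seen. In activated cells the highest value, 1.28, was that of the dim Scd3, which entered the fit through activated knockout arrays only.

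**Figure D4:**
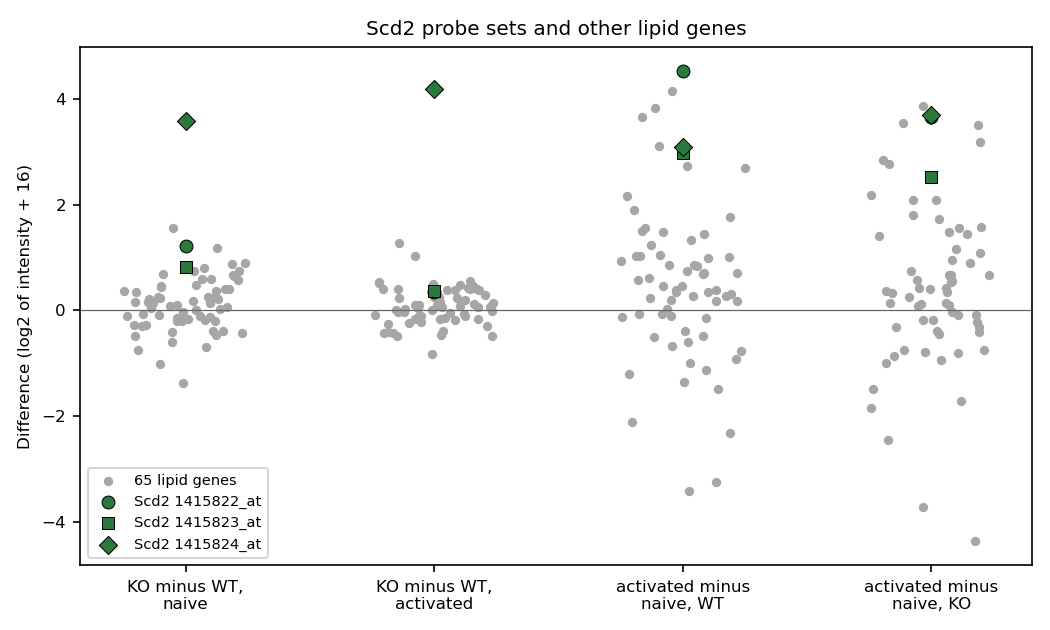
Differences between groups in log2 of intensity + 16 for 65 lipid genes (grey, spread sideways for sight) and the 3 Scd2 probe sets (green). In both genotype comparisons, which chose Scd2, 1415824_at lies above all grey points, at 3.59 and 4.19, and the other Scd2 probe sets lie among them.

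Activation of wild-type and of knockout cells were comparisons that had not chosen the probe sets, and these were tested. They share arrays with the genotype comparisons. Scd2 rose on all 3 of its probe sets in both genotypes. The mean of 1415822_at reached 32717 ± 488 from 1402 ± 263 in wild type, a 23.3-fold rise (log2 4.54, SE 0.21, adjusted p = 1.02e-07, limma, n = 2). In the knockout it rose 12.3-fold (log2 3.66, SE 0.21, adjusted p = 3.68e-07). For 1415824_at the log2 rise was 3.10 in wild type and 3.69 in the knockout (SE 0.40, adjusted p = 0.000127 and 3.2e-05), and for 1415823_at 2.98 and 2.53 (SE 0.48, adjusted p = 0.000585 and 0.00157). Whether the rise differed between genotypes was not tested, since that difference is built from the comparisons that chose the probe sets.

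No Erdr1 probe set was called in either genotype. The log2 change of 1452406_x_at was −0.53 in wild type and −0.37 in the knockout (SE 0.28, adjusted p = 0.156 and 0.312, limma). The wild-type change was −0.94 and passed without wild-type naive replicate 2 (adjusted p = 0.0194), the array that read 9961. The change of 1447790_at was −0.39 in wild type (SE 0.54, adjusted p = 0.61), and its knockout readings were below the array medians in both states. At this spread a modest change of Erdr1 with activation could not be told from none.

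The pair 1431213_a_at and 1455869_at fell in both genotypes, with a log2 change for the first of −3.89 in wild type and −3.32 in the knockout (SE 0.33, adjusted p = 5.68e-06 and 1.59e-05, limma) and for the second of −2.13 and −1.66 (SE 0.29, adjusted p = 0.000174 and 0.000884). Of the B cell markers 10 of 12 fell beside them in each genotype, and of the macrophage and monocyte markers 6 of 11 in wild type and 10 of 11 in the knockout, where 21.8% and 23.4% of all probe sets fell. The probe set 1457769_at was not called in the knockout, at −0.42 (SE 0.32, adjusted p = 0.339). In wild type, where it read 3.60 to 4.71, a change could not have been measured. The probe set 1439200_x_at was not called in wild type (0.45, SE 0.34, adjusted p = 0.34). In the knockout its change was 1.56 (adjusted p = 0.00371), but the readings of 4.87 to 61.3 lay below the array medians and the probe set had entered the fit through wild-type arrays, so no call is read from it. With an offset of 64 the change was 0.69 (adjusted p = 0.0754), and with the 4 knockout arrays alone the adjusted p was 0.122.

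Counting probe sets at or above the array median on at least 2 of the 4 arrays compared, 3 rose and 2 fell of 8 in wild type, where 17.4% of all probe sets tested rose and 21.8% fell. In the knockout 3 rose and 2 fell of 7, where 18.2% rose and 23.4% fell. The median log2 change over all probe sets tested was −0.16 in each genotype. Centring the arrays on their medians brought it to 0.03 in wild type and −0.04 in the knockout and kept these 10 calls, and the split of calls over all probe sets in wild type went from 4756 higher and 5958 lower to 5448 and 4424. With the Actb signal ratio as a covariate 9 of the 10 calls were lost, and the rise of 1415822_at in wild type was kept (log2 5.02, adjusted p = 0.0142). All 10 kept their direction in that fit, with log2 changes of 2.25 to 6.74 in size.

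**Figure D5:**
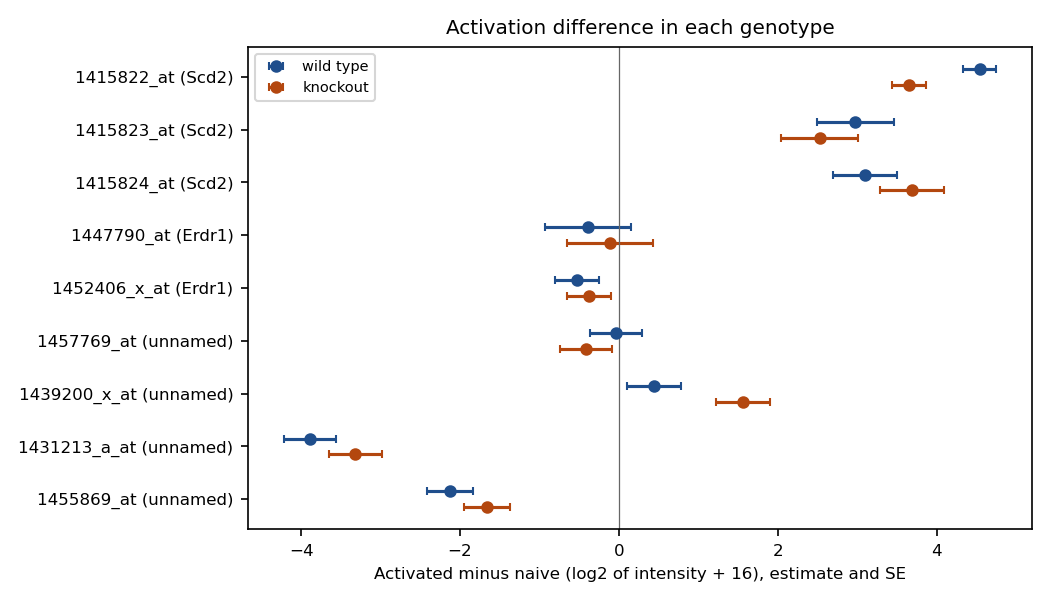
Activated minus naive cells for the 9 probe sets in wild type and knockout, in log2 of intensity + 16, with the SE of the fit as bars. The Scd2 probe sets lie between 2.53 and 4.54, those of Erdr1 between −0.53 and −0.11, and 1431213_a_at and 1455869_at between −3.89 and −1.66.

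Of the 65 lipid genes 24 rose and 10 fell on activation in wild type, where 17.4% of all probe sets rose and 21.8% fell. In the knockout 26 rose and 12 fell, where 18.2% rose and 23.4% fell, with median log2 changes of 0.38 and 0.37. With centred arrays 29 rose and 7 fell in wild type, and 28 and 11 in the knockout. With the Actb covariate 1 of the 65 rose and 1 fell in wild type and 0 were called in the knockout, where 484 and 0 of all probe sets were called (limma, 2624 in the knockout at an unadjusted p under 0.05). Changes of single genes are given on the log2 scale, wild type first. Of 9 genes for desaturation and its electron donors 5 rose in each genotype and none fell. The outer mitochondrial cytochrome b5 gene Cyb5b rose by 2.69 in wild type and 2.78 in the knockout (adjusted p = 2.12e-07 and 1.75e-07, limma), the polyunsaturated fatty acid desaturase gene Fads2 by 4.15 and 3.54, and Scd1 by 2.74 and 2.85.

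Of 10 genes of fatty acid synthesis 4 rose and 1 fell in wild type and 5 rose and 1 fell in the knockout. Fasn, the fatty acid synthase, rose by 1.90 and 0.95 and Acly, which makes cytosolic acetyl-CoA from citrate, by 1.04 and 1.74 (adjusted p = 1.88e-05 and 4.56e-07 for Acly, limma). The citrate carrier gene Slc25a1 rose by 1.5 and 2.09, and Acss2, which makes acetyl-CoA from acetate, gave −2.11 and −1.49. Of 10 elongation genes 4 rose in wild type and 5 in the knockout, with Hacd1 at 3.83 and 3.52, Elovl6, which extends palmitate, at 1.56 and 1.80, and Hsd17b12 at 1.24 and 1.41.

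Of 7 acyl-CoA synthetase and fatty acid transport genes 4 rose in each genotype, while 1 fell in wild type and 2 in the knockout. Acsl4 rose by 2.17 and 2.18 and Acsl5 by 0.87 and 0.89, and Acsbg1 fell, at −3.25 and −3.73. Of 14 acyltransferase and phosphatidate phosphatase genes 3 rose and 3 fell in each genotype. Agpat5 rose by 1.44 and 1.59 and the diacylglycerol acyltransferase gene Dgat2 by 3.11 and 3.19. Agpat1 fell by 1.20 in wild type and gave −0.32 in the knockout (adjusted p = 0.0122 and 0.471, limma), and Mboat7 gave 0.03 in wild type and fell by 0.86 in the knockout (adjusted p = 0.915 and 0.00312).

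The regulators split. Of 7 genes of SREBP control 4 rose in each genotype, with Srebf2, which encodes the sterol-responsive factor itself, at 1.04 and 1.49, Insig1 and Insig2, which retain SREBP in the endoplasmic reticulum, at 1.01 and 2.09 and at 1.33 and 0.65, and the protease gene Mbtps2 at 0.94 and 1.17. In that list 1 fell in wild type and 2 in the knockout. These were Mbtps1, at −0.77 and −0.94, and in the knockout also Srebf1, which encodes another SREBP factor. Srebf1 gave −0.38 in wild type and −0.80 in the knockout (adjusted p = 0.0997 and 0.00315, limma). Of 8 lipid-sensing receptors and LXR targets 4 fell in each genotype and none rose. In the knockout 1 rose and 3 fell with quantile-normalized arrays, and 1 rose and 4 fell with centred arrays. With the Actb covariate 1 of the 8 fell in wild type and 0 were called in the knockout. In that fit 0 genes of SREBP control were called in either genotype. Of all probe sets 17.4% and 18.2% rose and 21.8% and 23.4% fell, wild type first. Mylip, a ligase that degrades the LDL receptor, changed by −3.42 and −4.38, and the cholesterol exporters Abca1 and Abcg1 by −2.31 and −2.46 and by −1.12 and −1.85 (adjusted p = 7.1e-08 to 0.000351, limma, for these 3 genes in both genotypes).

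Of the interleukin 18 axis, read beside Erdr1, 6 of 7 genes were tested. None passed between genotypes in naive or activated cells by limma, where 0.562% and 0.215% of all probe sets did, and 0 and 2 had an unadjusted p under 0.05. On activation 4 fell in each genotype, where 21.8% of all probe sets fell in wild type and 23.4% in the knockout. With the Actb covariate none of the 4 was called in either genotype (limma). The receptor gene Il18r1 gave −1.32 and −2.34, Il18 itself −1.86 and −2.07, the signalling kinase gene Irak1 −2.14 and −1.58 and the receptor accessory gene Il18rap −0.60 and −1.98 (adjusted p = 0.048 for Il18rap in wild type, limma, a call lost with quantile-normalized and with centred arrays). Near Erdr1, Mid1 rose by 1.17 and 1.87 (adjusted p = 0.0151 and 0.000867), Msl3 by 0.91 and 1.10 and Hccs by 1.27 and 1.70. Near Scd2, Bloc1s2 rose by 0.51 and 0.74, Ndufb8 rose by 0.51 in wild type (0.36 in the knockout, adjusted p = 0.0956) and Hif1an fell by 1.05 in the knockout (0.06 in wild type, adjusted p = 0.868).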

How the data were processed

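Values are intensities that the authors deposited on a linear scale, made with MAS5 per the submitters' processing notes (version not stated there). A 2% trimmed mean of 500.003 to 500.004 on each array shows that they were scaled before deposit, and no value was at or under 0. Detection calls were not used, and 2 arrays per group limit the precision.

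Symbols came from the platform annotation (34958 probe sets with 1 symbol, 932 with several, 9211 with none, the 4 unnamed ones among these) and were updated by Entrez identifier to GRCm38.p6, also used for gene order. Of 184 entries in 18 gene lists 159 matched a probe set by name.

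After 64 controls were removed, 27389 probe sets at or above the array median on at least 2 arrays were tested as log2(intensity + 16). Group means were fitted to all 8 arrays in limma 3.58.1 (R 4.3.3, lmFit, eBayes with a trend, 4 residual and 6.68 prior degrees of freedom), with two-sided tests, Benjamini-Hochberg adjustment within a contrast and a threshold of 0.05. The fit was tested on simulated data. A list gene was read by its brightest tested probe set. Named were all chosen probe sets, list genes and neighbours past the threshold between genotypes, up to 3 genes per list and activation contrast with the smallest p, the 5 nearest profiles, and neighbours past the threshold on activation. Genes outside this rule were named after their values were seen. The probe sets, lists and alternatives were chosen with earlier results of these data known.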

Additional observations from a re-analysis of the deposited data

How the results depend on the processing

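The 18 genotype differences of the 9 probe sets kept their sign in all 318 recomputed values and moved by more than the spread between replicates in 24. Of the 10 activation calls on probe sets measured in that genotype, 9 were lost with the Actb covariate, where all 10 kept their direction, and none was lost in any other setting. The number of probe sets called over the whole table was less steady. It was 10714 for activation in wild type and 11396 in the knockout, 7742 to 10848 and 8458 to 12182 without 1 array each, and 484 and 0 with the Actb covariate (limma, 2624 at an unadjusted p under 0.05 for the 0). It was 154 for genotype in naive cells, 27 to 235 without 1 array each, 102 without a filter, 3 when the prior variance had no trend, 5 with the 4 naive arrays alone and 18 with the Actb covariate. It was 59 for genotype in activated cells, 8 to 103 without 1 array each, 31 with arrays centred on their median (20 higher and 11 lower, against 31 and 28), 7 with no such trend, 719 with the 4 activated arrays alone and 6 with the Actb covariate. Fewer arrays or fewer degrees of freedom enter when arrays are left out or a covariate is added, and otherwise the cause was not tested. With the Actb covariate 1447790_at gave −0.01 in activated cells.

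With the replicate number as a block the counts were 10302, 11014, 108 and 26. Deviations of equally numbered arrays correlated at −0.17 to 0.07, so the numbers were not taken as pairs. A block with the naive knockout numbers crossed, added after the data were seen, gave 11049, 11739, 167 and 74.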
